A study of Mus musculus with 15 samples.

Results

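The Hox genes of mouse lumbar dorsal root ganglia are described here as a positional code, gene by gene and library by library. Members are all rows of the count table whose Ensembl identifier maps to a protein-coding gene named Hoxa, Hoxb, Hoxc or Hoxd followed by digits only. The table holds 38 of them among 39179 identifiers, 11 in HoxA, 10 in HoxB, 9 in HoxC and 8 in HoxD. Hoxd4 is not analysed here. Of the 38 members, 34 had at least 1 count and 29 passed the filter on low counts and were tested.

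Ganglia of lumbar levels 4 to 6 were taken from mice of 3 to 6 months on a mixed background in which C57bl6 prevails, and messenger RNA was sequenced from 1 library per animal. Knockout (KO) mice carry Wnt1-Cre and 2 floxed alleles of the miR-183 cluster (mirflox/flox), so recombination is directed to the neural crest lineage, which gives the ganglion's neurons and glia but not its blood vessels, macrophages or connective tissue of other origin. The groups were KO after spared nerve injury (KO SNI, n = 3, replicates 13, 19 and 21), KO without injury (KO naive, n = 4, replicates 4, 5, 8 and 9), control after the same injury (control SNI, n = 3, replicates 15, 18 and 23) and control without injury (control naive, n = 5, replicates 1, 2, 3, 6 and 7). Controls carried Wnt1-Cre without the floxed alleles, except control SNI replicates 18 and 23 and control naive replicate 7, which were wild type and lack Cre. In spared nerve injury the common peroneal and tibial branches of the sciatic nerve are tied and severed and the sural branch is left. Values of single libraries are given below in this order of replicates.

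Hox genes encode homeodomain transcription factors and lie in 4 clusters, HoxA to HoxD. Members at the same place in different clusters are paralogs and share a number, from 1 at the anterior end to 13 at the posterior end. In the embryo the genes are switched on in the order of the cluster, so that cells further back along the body express ever higher numbers, and neural crest derivatives keep part of that code in the adult. Genes of paralog groups 8 to 11 pattern the lumbar spinal cord and hind limb, those of groups 12 and 13 the sacral and tail region, and those of groups 1 to 3 the hindbrain and neck. Polycomb complexes keep silent members silent, trithorax proteins keep active members active, and Pbx and Meis proteins bind DNA together with Hox proteins.

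Libraries held 8075133 to 10822762 counts in KO SNI, 7589426 to 10289398 in KO naive, 5252920 to 9615223 in control SNI and 8778016 to 10754866 in control naive animals, lowest in control SNI replicate 23, and 1224 to 3256 of these fell on the members. A count of 0 in a single library allows 0.277 to 0.571 CPM (3 counts; counting error only). The deleted microRNA genes are too short for this assay, with 0 counts for Mir183, 1 for Mir96 and 2 for Mir182 over all libraries, so they check no label. Sensory neuron markers were detected in all 15 libraries, 10 of 10 of them. Of 10 spinal cord markers, some were at or near 0, with 16 counts for Chat, 4 for Mnx1, 3 for Olig1 and 2 for Olig2 over all libraries. Others of that list were read in every library, with 1728 counts for Aqp4, 1721 for Slc1a2, 437 for Slc5a7, a cholinergic gene, and 125 for Gad1. Nothing in the labels names a litter or a library batch, and p-values set group differences against the spread between these animals.

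Ganglia of all 4 groups expressed a broad block of HoxA, HoxB and HoxC that stopped sharply toward the posterior end. HoxD was also high at its anterior members and stepped down toward its posterior end. A level is given as CPM, the reads of a gene scaled to the total of its library, and between genes as CPM per kilobase of exon, over all 15 libraries. Hoxa7 was highest, at 9.06 ± 0.783 CPM per kilobase (SD, n = 15), followed by Hoxa10 at 8.35 ± 1.17, Hoxd8 at 7.40 ± 0.876 and Hoxa9 at 7.15 ± 0.626. The next 4 were Hoxd1 at 5.89 ± 1.19, Hoxb9 at 5.89 ± 1.11, Hoxc10 at 5.23 ± 1.47 and Hoxb7 at 4.79 ± 1.38. Neighbours in this order overlapped in their ranges over libraries, and their order within single libraries was not tested.

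Single libraries of 3 high members show their spread. Hoxa7, which patterns the trunk, had 25.5, 26.8 and 30.0 CPM in KO SNI, 27.3, 26.8, 24.8 and 28.3 CPM in KO naive, 28.4, 22.0 and 24.6 CPM in control SNI and 27.9, 25.6, 22.4, 26.3 and 24.1 CPM in control naive libraries. Hoxd8, a lumbar and sacral patterning gene, had 19.6, 17.2 and 22.2 CPM in KO SNI, 18.5, 18.6, 19.3 and 22.7 CPM in KO naive, 22.0, 18.9 and 26.9 CPM in control SNI and 20.5, 18.8, 20.5, 18.6 and 20.5 CPM in control naive libraries. All 4 groups overlapped for both genes. Hoxd1, an anterior gene that acts in pain-sensing neurons of the mouse, had 12.0, 8.04 and 11.8 CPM in KO SNI, 9.95, 8.81, 9.68 and 11.7 CPM in KO naive, 12.3, 7.63 and 12.3 CPM in control SNI and 10.8, 15.8, 11.2, 13.65 and 8.85 CPM in control naive libraries. Its groups overlapped as well, with the highest level in control naive replicate 2.

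**Figure D1:**
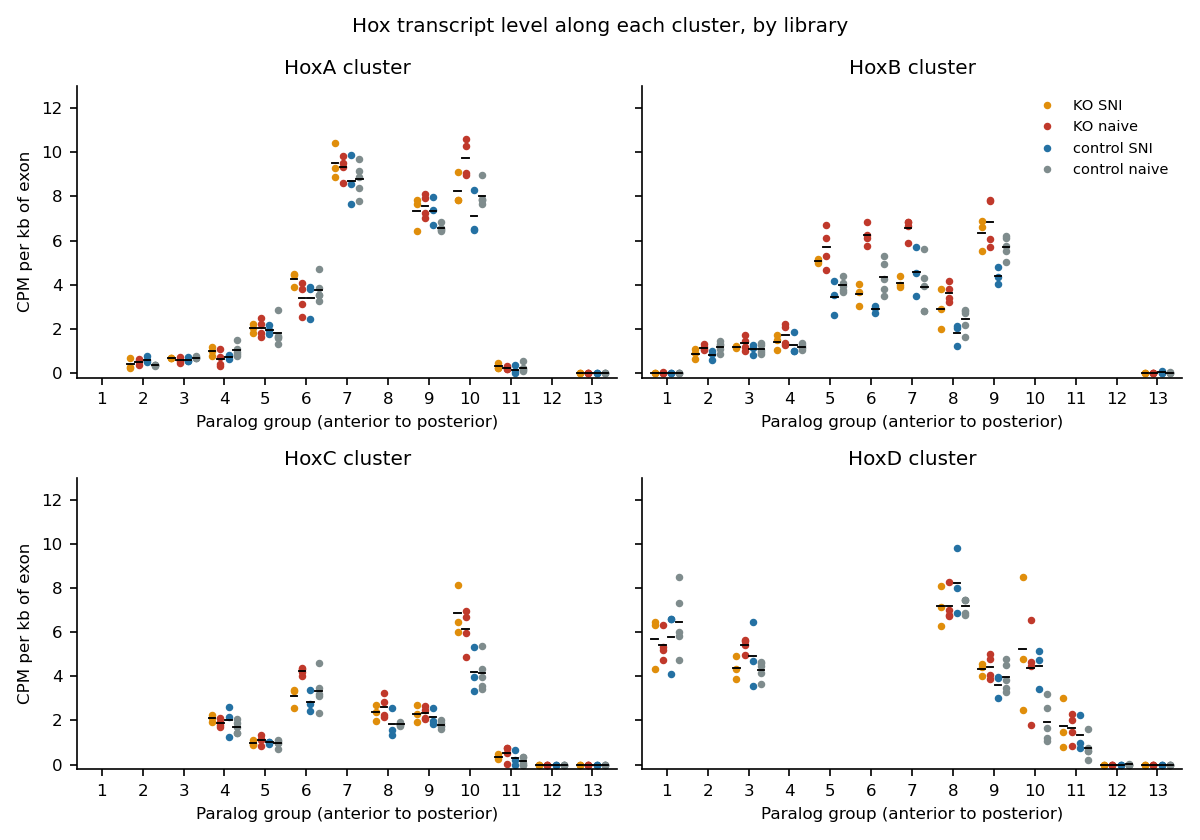
CPM per kilobase of exon (vertical, linear) against paralog group (horizontal) for each cluster. Points are libraries, coloured by group, and short lines are group means; 1 HoxA member is not shown, and HoxA falls between Hoxa10 and Hoxa11, HoxB after Hoxb9, HoxC between Hoxc10 and Hoxc11, and HoxD is graded from Hoxd8 to Hoxd11.

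In HoxA (chromosome 6, GRCm38) the level climbed with the paralog number and then dropped within 1 gene. Hoxa2, Hoxa3 and Hoxa4 stood at 0.460, 0.650 and 0.866 CPM per kilobase, Hoxa5 at 1.95 and Hoxa6 at 3.70. After the plateau of Hoxa7, Hoxa9 and Hoxa10, Hoxa11, a gene of the forearm and lower leg skeleton and of the kidney, stood at 0.243 ± 0.147 CPM per kilobase and did not pass the filter. It had 0 to 13 counts per library, and control SNI replicate 15 had none. Hoxa13, the next gene, had no count in any library, which allows 0.0212 CPM over the 15 libraries together.

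HoxB (chromosome 11) formed a second block, from Hoxb5 to Hoxb9. Those 5 genes lay between 2.73 CPM per kilobase for Hoxb8 and 5.89 for Hoxb9, whereas Hoxb2, Hoxb3 and Hoxb4 lay between 1.05 and 1.40. The cluster has no member between Hoxb9 and Hoxb13. Hoxb13, a gene of the tail bud and prostate, had 2 counts in all, and Hoxb1, a hindbrain gene at the other end, had 1.

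HoxC (chromosome 15) rose unevenly to Hoxc10 and then fell. Hoxc4 to Hoxc9 lay between 1.01 CPM per kilobase for Hoxc5 and 3.43 for Hoxc6, Hoxc10 stood at 5.23 and Hoxc11 at 0.318 ± 0.267. Hoxc12 and Hoxc13 had no count in any library. Some exons of Hoxc5 and Hoxc10 overlap on the same strand, so reads in the shared stretch cannot be assigned to either.

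HoxD (chromosome 2) differed in form from the other clusters, in that its most anterior member was among its highest. Hoxd1 stood at 5.89 and Hoxd3 at 4.73 CPM per kilobase, and exons of Hoxd3 overlap those of Hoxd4 and of 2 antisense genes. From Hoxd8 the level stepped down through Hoxd9 at 4.10 ± 0.574, Hoxd10 at 3.75 ± 2.08 and Hoxd11 at 1.32 ± 0.791. Hoxd12 had 1 count and Hoxd13 none.

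Put together as 1 pool of Hox transcripts, each weighted by its level per kilobase, the mean paralog number was 6.99 ± 0.153 (SD, n = 15). Paralog groups 9 to 13 held 37.6 ± 2.61% of the pool, groups 5 to 8 held 44.3 ± 2.31% and groups 1 to 4 held 18.2 ± 1.82%. HoxA gave 32.2%, HoxD 26.7%, HoxB 25.3% and HoxC 15.8% of the pool, as means over all 15 libraries. Some groups differed in these shares without overlap. HoxA gave 28.3 to 31.3% in KO naive and 33.1 to 34.1% in control naive libraries. HoxB gave 21.5 to 22.1% in control SNI and 24.5 to 26.9% in control naive libraries, and HoxD 29.3 to 30.8% and 25.05 to 28.9%. The HoxB share in KO naive libraries, 26.0 to 30.7%, overlapped that in control naive libraries. The mean paralog number ran from 7.05 to 7.28 in KO SNI, 7.01 to 7.20 in KO naive, 6.85 to 7.07 in control SNI and 6.75 to 6.96 in control naive libraries. KO libraries lay above control libraries without overlap in naive animals and with overlap after injury. The share of groups 9 to 13 ran from 37.6 to 44.4% in KO SNI, 36.9 to 40.0% in KO naive, 35.9 to 38.4% in control SNI and 33.2 to 37.5% in control naive libraries, which overlap. These are descriptions of the pool, without a test, and depend on annotated exon lengths.

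The comparison of KO with control asks whether the code depends on the miR-183 cluster. Averaged over conditions, Hoxb5, Hoxb8, Hoxb9 and Hoxc10 were moderately higher in KO animals. Over both conditions, 4 of the 29 tested members rose (edgeR quasi-likelihood F test, Benjamini-Hochberg adjusted over 16976 genes) and none fell, against 4.17% of all tested genes called in either direction. DESeq2 called 6 members, these 4 with Hoxa10 and Hoxb6, and limma-voom 3, without Hoxb8 (adjusted p = 0.0583). With edgeR, Hoxb6 stood at 0.40 on the log2 scale (adjusted p = 0.0522), and Hoxb7, at 0.30 (adjusted p = 0.273), was slightly lower in KO after injury (-0.14, adjusted p = 0.763). The median log2 fold change of the members was 0.20, against -0.02 for all tested genes, and 24 of 29 were above 0.

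Hoxb5, which acts in the lung bud and in the enteric neural crest, lies on chromosome 11 at 96303336 to 96306121. Its level was 14.1, 13.9 and 14.4 CPM in KO SNI libraries and 14.8, 12.97, 16.99 and 18.7 CPM in KO naive libraries. In control SNI libraries it was 9.90, 7.32 and 11.6 CPM, and in control naive libraries 11.3, 12.3, 10.3, 11.01 and 10.5 CPM. Every KO library lay above every control library. The log2 fold change averaged over conditions was 0.55 (SE 0.105, adjusted p = 0.00542, edgeR). The antisense gene Hoxb5os overlaps its exons, and the sources used here give no strand setting for the counting.

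Hoxc10, a gene of lumbar motor neuron and hind limb identity (chromosome 15, 102966796 to 102971893), had the largest log2 fold change of the 4. Its level was 12.4, 11.4 and 15.5 CPM in KO SNI and 12.8, 11.4, 9.30 and 13.3 CPM in KO naive libraries, against 10.2, 6.39 and 7.54 CPM in control SNI and 8.26, 6.77, 6.53, 10.3 and 7.56 CPM in control naive libraries. The groups did not overlap after injury, and in naive animals control replicate 6 lay above KO replicate 8. The averaged log2 fold change was 0.63 (SE 0.134, adjusted p = 0.0121, edgeR).

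Hoxb9, a thoracic and mammary patterning gene, lies on chromosome 11 at 96271457 to 96276595. It had 17.04, 17.8 and 14.2 CPM in KO SNI and 20.1, 14.7, 15.7 and 20.2 CPM in KO naive libraries, against 12.4, 11.2 and 10.3 CPM in control SNI and 15.9, 14.2, 12.96, 15.7 and 14.8 CPM in control naive libraries. Here the groups did not overlap after injury but did in naive animals. The averaged log2 fold change was 0.39 (SE 0.0969, adjusted p = 0.0310, edgeR), and the call was lost on leaving out any 1 of 8 libraries (adjusted p up to 0.0979, without KO SNI replicate 19): KO SNI 13 and 19, KO naive 4 and 9, control SNI 18, and control naive 2, 3 and 7.

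Hoxb8, which patterns the dorsal spinal cord and somatosensory circuits and is also expressed in haematopoietic cells, lies on chromosome 11 at 96281905 to 96285315. It had 5.30, 7.66 and 9.99 CPM in KO SNI and 10.1, 9.01, 8.45 and 10.96 CPM in KO naive libraries, against 5.42, 5.67 and 3.23 CPM in control SNI and 7.57, 7.23, 5.78, 7.37 and 4.33 CPM in control naive libraries. The naive groups did not overlap, and the injured ones did. Its averaged log2 fold change of 0.61 (SE 0.162, adjusted p = 0.0442, edgeR) was not called when any 1 of 12 libraries was left out, with adjusted p up to 0.145 without KO SNI replicate 21. The 3 whose omission kept the call were KO SNI replicate 13 and control SNI replicates 15 and 18.

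The wild-type controls bear on these calls, since they differ from every KO animal also by Cre. Without those 3 libraries, 2 members were called, Hoxb5 and Hoxc8, and the averaged log2 fold changes of Hoxb8, Hoxb9 and Hoxc10 were 0.48, 0.33 and 0.45 (adjusted p = 0.134, 0.168 and 0.120). Control SNI then holds 1 library, which is assumed to vary like the other groups.

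**Figure D2:**
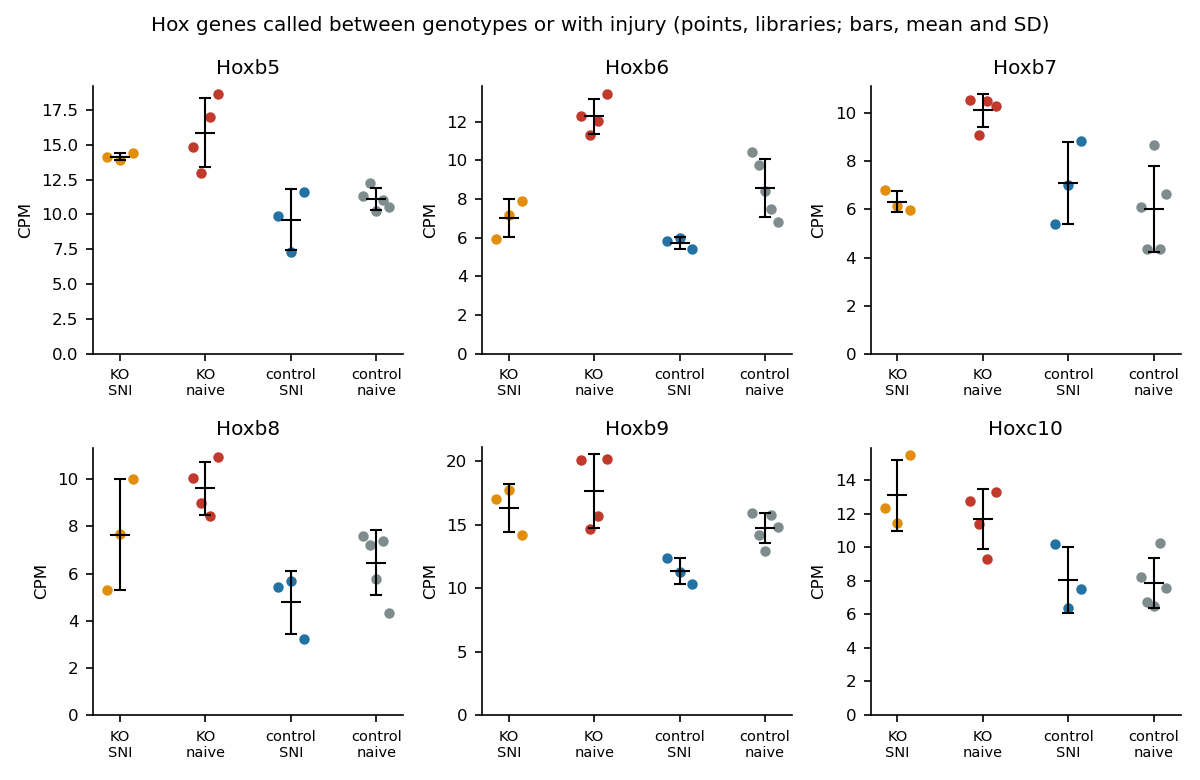
CPM (vertical, linear from 0) of the 6 members called for genotype or injury. Points are libraries, and bars are the group mean and SD; all KO libraries of Hoxb5 lie above all control libraries, and Hoxb6 is lowest in the injured groups.

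In naive animals alone, 1 of 29 members rose, against 1.89% of all tested genes called. This was Hoxb7 (chromosome 11, 96286623 to 96290162), which acts in axial skeleton patterning, at 10.6, 9.11, 10.5 and 10.3 CPM in KO naive libraries against 6.10, 4.36, 8.67, 4.37 and 6.64 CPM in control naive libraries. Its log2 fold change was 0.74 (SE 0.184, adjusted p = 0.0483, edgeR), and it passed without control naive replicate 3, control SNI replicate 15 or control SNI replicate 23, but in none of the other 12 omissions of 1 library (adjusted p up to 0.129, without KO naive replicate 9). Hoxb5 (0.52, adjusted p = 0.0518) and Hoxb6 (0.52, adjusted p = 0.0580) missed the threshold narrowly, and both passed with DESeq2 and with limma-voom. An unadjusted p under 0.05 was found for 15 of the 29, and for 1984 of all 16976 tested genes.

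Of the 9 tested members of paralog groups 9 to 13, 8 had such a p, and all 9 had a positive log2 fold change in naive animals, with a median of 0.37. The 9 tested members of groups 1 to 4 had a median of 0.15, with 5 above 0, and the 11 of groups 5 to 8 a median of 0.33, with 9 above 0. The groups did not overlap and KO was higher for 9 of 29 members, Hoxa9, Hoxa10, Hoxb5, Hoxb6, Hoxb7, Hoxb8, Hoxc8, Hoxc9 and Hoxd3, against 4.87% of all tested genes. No member was lower in KO without overlap. Summed over all members, Hox transcripts made up 305 to 333 CPM in KO naive and 246 to 276 CPM in control naive libraries.

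Hoxa9 and Hoxa10, posterior homeobox genes that also act in blood progenitors, had small shifts beside their levels. Those of Hoxc11 (log2 1.78, SE 0.797, adjusted p = 0.390), Hoxd10 (1.18, SE 0.416, adjusted p = 0.232) and Hoxd11 (1.15, SE 0.508, adjusted p = 0.391) were larger but not called (edgeR). Hoxa9 stood at 44.2, 40.5, 39.2 and 45.3 CPM in KO naive and 36.2, 38.2, 36.6, 35.9 and 36.3 CPM in control naive libraries (log2 0.21, SE 0.0817, adjusted p = 0.306, edgeR). Hoxa10 stood at 34.6, 29.4, 33.7 and 29.6 CPM in KO naive and 25.6, 29.4, 25.8, 25.02 and 25.6 CPM in control naive libraries (log2 0.28, SE 0.0961, adjusted p = 0.206, edgeR). Hoxa7 and Hoxd8, both among the highest members, had log2 differences of 0.09 (95% interval -0.12 to 0.29) and -0.0030 (-0.24 to 0.23). In a bulk sample a change in the number of expressing cells and a change in RNA per cell cannot be told apart.

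After injury no member was called between KO and control, against 1.04% of all tested genes. An unadjusted p under 0.05 was found with edgeR for 4 of 29 members and for 3862 of all 16976 tested genes, a larger share. DESeq2 called 3, Hoxb5, Hoxb9 and Hoxc10, and limma-voom none. The smallest p values were those of Hoxb5 (log2 0.58, SE 0.166, adjusted p = 0.0971) and Hoxb9 (log2 0.52, SE 0.152, adjusted p = 0.105). Without control SNI replicate 15 edgeR called Hoxb5, Hoxb9 and Hoxc10 and 3560 of all tested genes, and without control SNI replicate 23 Hoxb5. The summed level of the members was 274 to 302 CPM in KO SNI and 257 to 264 CPM in control SNI libraries. KO SNI animals carry numbers 948 to 956 and control SNI animals 974 to 976. After injury, genotype and the order of these numbers therefore cannot be told apart, and the comparison averaged over conditions includes these animals.

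Averaged over conditions, 1 of 10 sensory neuron, 1 of 8 macrophage and 2 of 4 tested spinal cord markers were called with genotype. No marker of the glia, fibroblast, muscle or endothelium lists was called, and 4.17% of all tested genes were. The called sensory neuron and macrophage markers were higher in KO, and of the called spinal cord markers 1 was higher and 1 lower. Within naive animals alone, 1 of 10 sensory neuron markers was called lower in KO. There 1 of 4 tested spinal cord markers was called higher, against 1.89% of all tested genes called. In naive animals the 10 sensory neuron markers summed to 6800 to 7540 CPM in KO and 6387 to 7618 CPM in control libraries. The 8 skeletal muscle markers, all detected in each group, summed to 20.99 to 237 CPM in KO naive and 4.82 to 110 CPM in control naive libraries, and to 167 to 1290 CPM in KO SNI and 6.56 to 382 CPM in control SNI libraries. The 7 fibroblast and nerve sheath markers summed to 1095 to 1179 CPM in KO naive and 947 to 1615 CPM in control naive libraries. The part of these tissues in the Hox differences was not tested.

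**Figure D3:**
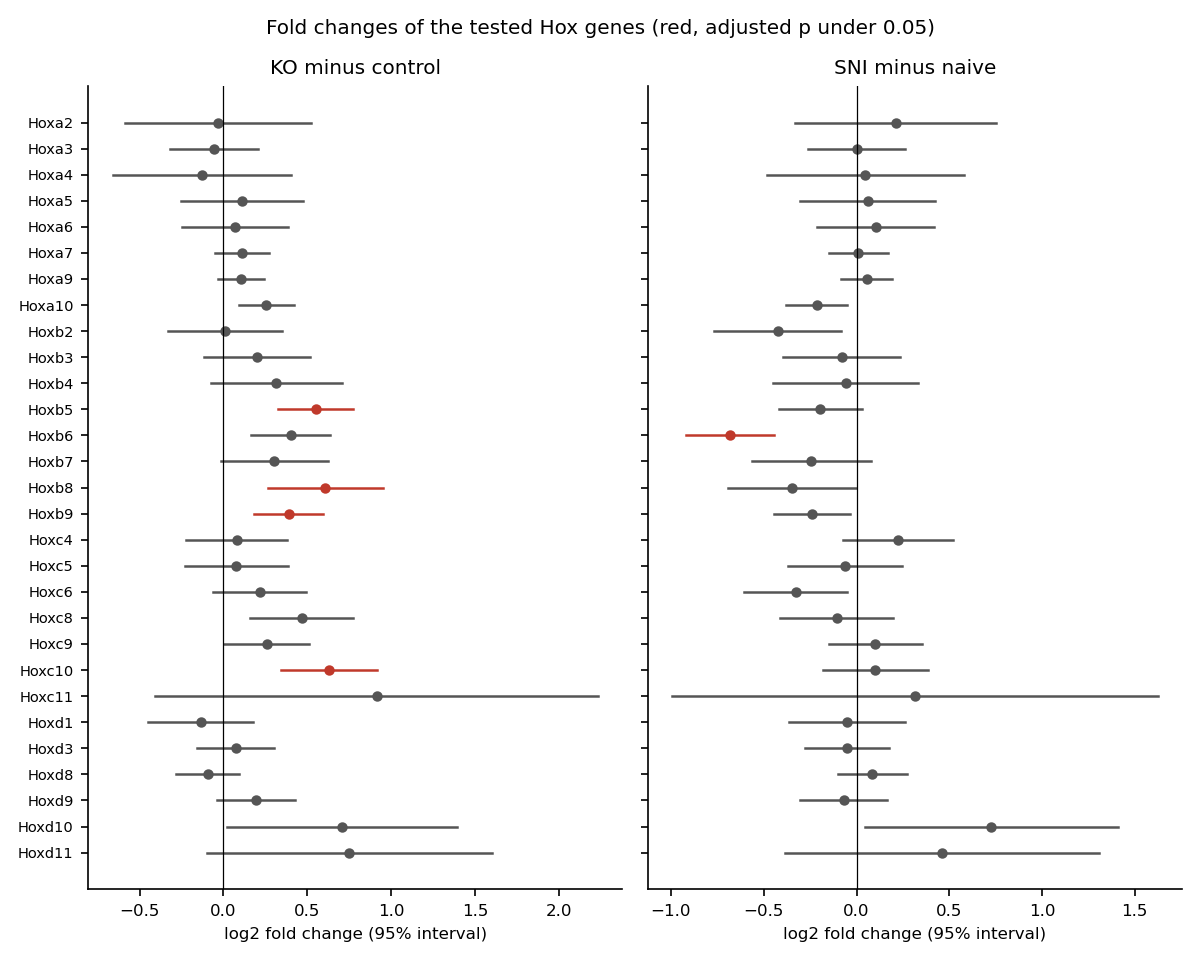
Log2 fold change (horizontal, with 95% intervals) of the 29 tested members for KO against control averaged over conditions, left, and SNI against naive averaged over genotypes, right. Red marks an adjusted p under 0.05; 4 members are red on the left, all above 0, and Hoxb6 is red on the right, below 0.

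With spared nerve injury 1 member was called, Hoxb6, which fell. Averaged over genotypes, 1 of 29 members fell and none rose, while 12.4% of all tested genes were called. Hoxb6, which acts in axial and limb patterning (chromosome 11, 96292476 to 96301569), stood at 5.93, 7.19 and 7.89 CPM in KO SNI libraries against 12.3, 11.3, 12.1 and 13.4 CPM in KO naive libraries. In control animals it stood at 5.83, 5.98 and 5.39 CPM after injury against 10.4, 9.75, 8.39, 7.46 and 6.82 CPM in naive libraries. Injured and naive libraries did not overlap in either genotype. The averaged log2 fold change was -0.68 (SE 0.112, adjusted p = 6.3e-04, edgeR), and the call was kept in all 15 omissions of 1 library and under each other setting tried.

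Within KO animals Hoxb6 was again the only member called, at -0.80 on the log2 scale (SE 0.157, adjusted p = 0.00471), where 10.1% of all tested genes were called. Hoxb7 came next, at 6.82, 6.15 and 5.99 CPM in KO SNI libraries against 10.6, 9.11, 10.5 and 10.3 CPM in KO naive libraries, without overlap (log2 -0.68, SE 0.214, adjusted p = 0.0527, edgeR). In control animals no member was called, against 2.48% of all tested genes. There 5 of 29 members and 2668 of all 16976 tested genes had an unadjusted p under 0.05 with edgeR, a like share, and DESeq2 and limma-voom called none. Hoxb6 had the smallest p (log2 -0.57, SE 0.160, adjusted p = 0.0780), and Hoxb9 followed (log2 -0.37, SE 0.138, adjusted p = 0.206).

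All 8 tested HoxB members had a negative averaged log2 fold change, with a median of -0.24. Of 8 HoxA members 7 had a positive one, with a median of 0.05, as had 50.5% of all tested genes. Within KO animals 0 of 8 HoxB and 5 of 8 HoxA members were above 0, against 47.6% of all tested genes. The clusters did not differ in this count within control animals, with 3 of 8 HoxB and 3 of 8 HoxA members above 0, against 53.6%. Of the 4 highest members, 3 had narrow intervals that include 0. Hoxa7 differed by 0.01 on the log2 scale (95% interval -0.15 to 0.17), Hoxa9 by 0.05 (-0.08 to 0.19) and Hoxd8 by 0.09 (-0.10 to 0.27). Hoxa10, the other one, had the second smallest p of all members (log2 -0.22, SE 0.0775, 95% interval -0.38 to -0.05, adjusted p = 0.0805, edgeR), at 29.8, 25.6 and 25.7 CPM in KO SNI and 21.4, 21.1 and 27.2 CPM in control SNI libraries. It was called without control SNI replicate 23 (adjusted p = 0.00837) and without the wild-type controls (adjusted p = 0.0386).

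Of the 8 macrophage markers, all detected in each group, 7 rose with injury averaged over genotypes, with sums of 231 to 295 CPM in KO SNI against 134 to 178 CPM in KO naive and 188 to 306 CPM in control SNI against 114 to 137 CPM in control naive libraries. Of the other lists, 2 of 7 Schwann cell markers fell, and 2 of 4 endothelium and 1 of 6 satellite glia markers rose. Among 10 sensory neuron markers 1 rose and 1 fell. No fibroblast, muscle or spinal cord marker was called, and 12.4% of all tested genes were. The part of added or lost cells in the fall of Hoxb6 was not tested. Injured animals carry numbers 948 to 976 and naive animals 1041 to 1082, so injury and that order cannot be told apart.

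The injury effects of the genotypes were not distinguishable for any member. No member and no gene was called for the difference between them (0.00% of all tested genes), 4 of 29 members and 2281 of all 16976 tested genes had an unadjusted p under 0.05 with edgeR, a like share, and DESeq2 and limma-voom called no member. Hoxb7 had the smallest p, with an injury effect lower by 0.88 on the log2 scale in KO than in control animals (-0.88, SE 0.301, adjusted p = 0.365). Its control SNI libraries had 5.42, 7.01 and 8.84 CPM, which overlap the control naive ones. Hoxd3 was next (-0.52, SE 0.216, adjusted p = 0.365), at 20.7, 18.1 and 16.3 CPM in KO SNI, 22.7, 23.7, 23.5 and 20.7 CPM in KO naive, 19.6, 27.1 and 14.9 CPM in control SNI and 17.4, 15.4, 19.2, 18.7 and 19.5 CPM in control naive libraries. Without control SNI replicate 15 the difference of Hoxb7 was called (adjusted p = 0.0498), as were 1235 of all tested genes. For any difference among the 4 groups, 7 of 29 members were called, Hoxa10, Hoxb5, Hoxb6, Hoxb7, Hoxb8, Hoxb9 and Hoxc10, against 13.4% of all tested genes. Of the 7, 5 belong to HoxB.

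Within groups most members varied moderately from animal to animal, with 3 exceptions at the posterior edge of the code. For 26 of the 29 tested members the biological coefficient of variation lay between 7.18% (Hoxa3) and 19.2% (Hoxb4). Their median was 12.7%, against 12.9% for all tested genes. These 26 leave out the 3 most variable members, and over all 29 the median was 13.9%. Hoxd10 had 38.8%, Hoxd11 47.8% and Hoxc11 70.7%, which lie at the 97.7th, 98.8th and 99.5th percentile of all tested genes. These 3 are the lowest steps of HoxD and HoxC before the silent end of each cluster. Hoxc11 was counted 0 to 16 times per library, so counting error adds to its spread, whereas Hoxd10 and Hoxd11 had 21 to 122 and 10 to 101 counts. The SD of log2 CPM about the group means had a higher median in the members. This median was 0.259 over the 29 members and 0.247 over the 26, against 0.217 over all tested genes. Genes were not matched for level in either measure.

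**Figure D4:**
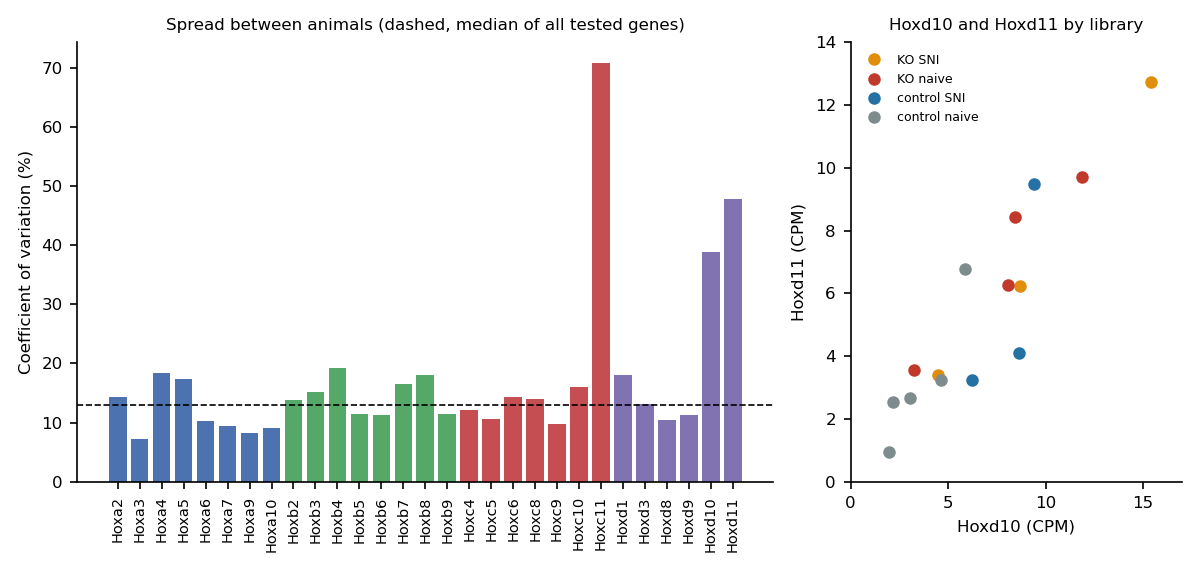
Left, biological coefficient of variation (percent) of each tested member, coloured by cluster, with the median of all tested genes dashed; Hoxc11, Hoxd11 and Hoxd10 exceed 38% and the others stay below 20%. Right, CPM of Hoxd11 against CPM of Hoxd10, 1 point per library, coloured by group.

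Hoxd10, which sets lumbar motor neuron identity and hind limb innervation (chromosome 2, 74691924 to 74695105), stood at 15.4, 8.70 and 4.50 CPM in KO SNI and 3.25, 11.9, 8.45 and 8.09 CPM in KO naive libraries. In control SNI libraries it stood at 6.25, 9.38 and 8.62 CPM and in control naive libraries at 4.62, 5.85, 1.96, 2.18 and 3.04 CPM. The highest library, KO SNI replicate 13, had 7.86 times the level of the lowest, control naive replicate 3. The KO groups spread most widely, and control SNI libraries lay above control naive libraries without overlap. Hoxd10 was not called for genotype (averaged log2 0.71, SE 0.319, adjusted p = 0.241, edgeR) or injury (0.73, SE 0.317, adjusted p = 0.156).

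Hoxd11, its posterior neighbour (chromosome 2, 74679557 to 74687016), a gene of forearm and kidney development, stood at 12.7, 6.24 and 3.40 CPM in KO SNI, 3.55, 9.70, 8.45 and 6.26 CPM in KO naive, 3.23, 9.49 and 4.09 CPM in control SNI and 3.25, 6.77, 0.932, 2.55 and 2.67 CPM in control naive libraries. The highest and lowest libraries were those of Hoxd10, and the range was 13.7-fold. Hoxc11 (chromosome 15, 102954427 to 102957708) stood at 1.01, 0.662 and 0.499 CPM in KO SNI, 0.102, 1.49, 1.52 and 1.04 CPM in KO naive, 0.417, 1.34 and 0 CPM in control SNI and 0.688, 0.688, 0.186, 0 and 0 CPM in control naive libraries. All 4 groups overlapped for both genes, and neither was called in any comparison.

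Hoxd10 and Hoxd11 varied together from library to library. With the group means removed, Pearson's r over the 15 libraries was 0.878 and Spearman's rho 0.914. For both the two-sided exact permutation p, over 103680 arrangements within groups, was 9.6e-06, the smallest that these allow. It was 0.00392 when adjusted over the 406 pairs of tested members, and no other pair passed. Without the 2 libraries farthest from the median of Hoxd10, KO naive replicate 4 and KO SNI replicate 21, r was 0.858. Hoxd11 ranked first of 16975 genes by likeness to Hoxd10, measured by r, while Hoxd10 had rank 3 by likeness to Hoxd11. Hoxc11 followed Hoxd10 less closely (r = 0.677, rank 68), as did Hoxd9 (r = 0.559, rank 241). Hoxc10 and Hoxa10, of the same paralog number as Hoxd10, had r of -0.44 and 0.17 with it. The values are those of the same 15 libraries throughout, and genes are not independent replicates.

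**Figure D5:**
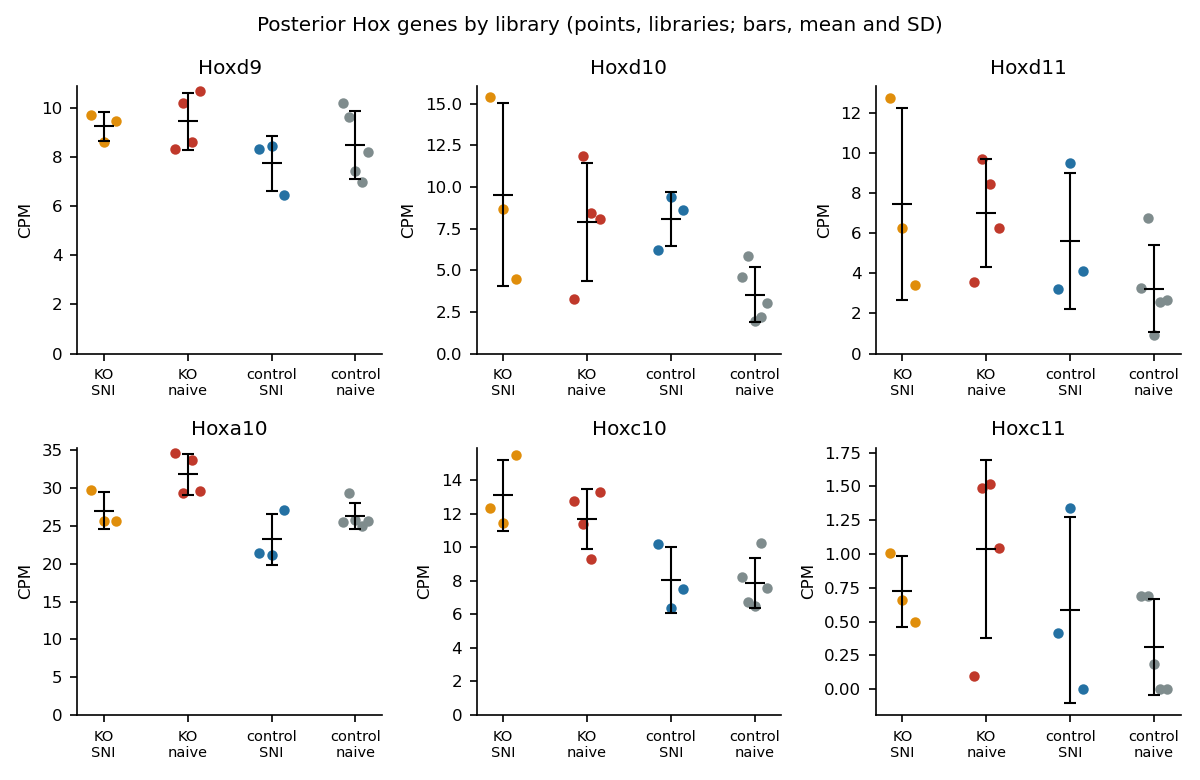
CPM (vertical) of 6 members of paralog groups 9 to 11, by group. Points are libraries, and bars are the group mean and SD; Hoxd10, Hoxd11 and Hoxc11 spread widely within groups, while Hoxd9, Hoxa10 and Hoxc10 do not.

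Hotair, a noncoding RNA transcribed antisense between Hoxc11 and Hoxc12, was read in few copies but in the same kind of library. It had 4, 3 and 1 counts in KO SNI, 2, 11, 5 and 1 in KO naive, 0, 6 and 0 in control SNI and 4, 2, 1, 1 and 0 in control naive libraries. The libraries with 4 or more counts were KO SNI replicate 13, KO naive replicates 5 and 8 and control SNI replicate 18, the 4 with the most Hoxd11, and control naive replicate 1. This gene was singled out after its values were seen, and it did not pass the filter. Of the 10 spinal cord markers, 10 were detected in KO SNI, 8 in KO naive, 8 in control SNI and 9 in control naive animals. They summed to 22.5 to 33.6 CPM in KO SNI, 20.7 to 30.8 CPM in KO naive, 25.1 to 36.6 CPM in control SNI and 27.1 to 32.9 CPM in control naive libraries, and were 28.9 CPM in KO SNI replicate 13. Their part in the spread of Hoxd10 and Hoxd11 was not tested.

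Because Hoxd10 and Hoxd11 moved together, the RefSeq windows from 250 bases before to 50 after their starts are shown (GRCm38.p6, chromosome 2, plus strand, at chr2:74691641-74691940, chr2:74679308-74679607 and chr2:74682073-74682372). Hoxd11 has 2 annotated starts. Capitals mark matches to TTTATG, the site of caudal type factors, or TGATNNAT, that of Hox with Pbx, searched on both strands.
Hoxd10: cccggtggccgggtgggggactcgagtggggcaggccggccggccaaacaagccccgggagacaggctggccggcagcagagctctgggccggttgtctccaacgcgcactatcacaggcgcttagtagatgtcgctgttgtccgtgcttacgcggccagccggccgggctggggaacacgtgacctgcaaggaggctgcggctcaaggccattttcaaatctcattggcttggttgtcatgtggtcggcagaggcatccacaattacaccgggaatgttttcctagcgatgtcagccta
Hoxd11, first start: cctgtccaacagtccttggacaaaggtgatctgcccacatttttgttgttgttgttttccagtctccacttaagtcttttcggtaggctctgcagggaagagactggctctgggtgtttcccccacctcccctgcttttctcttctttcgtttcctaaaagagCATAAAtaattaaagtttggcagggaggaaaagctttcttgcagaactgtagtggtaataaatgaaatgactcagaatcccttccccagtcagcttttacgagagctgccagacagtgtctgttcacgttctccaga
Hoxd11, second start: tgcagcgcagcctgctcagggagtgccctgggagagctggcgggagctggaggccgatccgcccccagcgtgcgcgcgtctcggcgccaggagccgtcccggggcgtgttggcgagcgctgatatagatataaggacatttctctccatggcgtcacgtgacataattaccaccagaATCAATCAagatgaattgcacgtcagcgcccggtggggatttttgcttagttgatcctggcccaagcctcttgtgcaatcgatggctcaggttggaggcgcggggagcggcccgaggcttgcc
The Hoxd10 window and the second Hoxd11 window are rich in CpG, with 22 and 25 of them against a median of 7 over all promoter windows, while the first Hoxd11 window has 4. TTTATG occurs once in the first Hoxd11 window and TGATNNAT once in the second, and neither is in the Hoxd10 window. Over all 32851 windows of this length the motifs are present in 11.9% and 8.85%, and in 5 and 4 of the 24 windows of 22 Hox genes. A match is a description of letters, not a site of binding.

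The microRNAs removed in the KO animals are shown with the miR-10 and miR-196 microRNAs encoded inside the Hox clusters, with the seed (bases 2 to 8) in capitals, from RefSeq.
miR-183-5p: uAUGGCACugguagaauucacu
miR-96-5p: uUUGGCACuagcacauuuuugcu
miR-182-5p: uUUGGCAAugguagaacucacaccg
miR-10a-5p: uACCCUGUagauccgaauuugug
miR-10b-5p: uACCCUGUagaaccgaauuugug
miR-196a-5p: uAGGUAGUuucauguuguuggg
miR-196b-5p: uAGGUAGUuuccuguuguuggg
The 3 deleted microRNAs come from 1 cluster on chromosome 6 and have different seeds. The miR-10 genes lie next to Hoxb4 and Hoxd4 and share 1 seed, and the miR-196 genes lie near Hoxa9, Hoxb9 and Hoxc10 and share another. Mir615, which also lies in HoxC, was not searched for.

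Sites of the deleted microRNAs were searched in the 3′ UTRs. An 8mer, the reverse complement of the seed followed by A, was found in the longest annotated 3′ UTR of 3 of the 38 members, and these are printed with 8 bases on each side and the 8mer in capitals.
Hoxa9, miR-182-5p site at chr6:52223110-52223133: tttaacttTTGCCAAAtaaaatat
Hoxd3, miR-183-5p site at chr2:74747311-74747334: acctgacaGTGCCATAaactgcgg
Hoxd8, miR-183-5p site at chr2:74707719-74707742: tcaagtagGTGCCATAttcattgt
All 3 are among the tested members, 10.3% of them, against 10.2% of all tested genes with a 3′ UTR. None of the members called for genotype or injury carries such an 8mer. In naive animals the log2 fold change of KO over control was 0.21 for Hoxa9, 0.33 for Hoxd3 (adjusted p = 0.324) and -0.0030 for Hoxd8, none of them called. Hoxd3 was called higher in KO in the fit of only the groups compared and in the fit without wild-type controls. With 7mer-m8 sites included, 6 of the 38 members carry a site, among them Hoxa5 and Hoxa10, and 17.2% of the tested members do, against 29.4% of all tested genes with a 3′ UTR.

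Sites of miR-10 and miR-196 were searched in the same way. An 8mer of miR-10 or miR-196 was found in 8 of the 29 tested members (27.6%), against 3.87% of all tested genes with a 3′ UTR, and this search was chosen after the data were seen. Hoxa7 carries 4 miR-196 sites, and Hoxa5, Hoxb6, Hoxb7 and Hoxc8 1 each. Hoxa3, Hoxb3 and Hoxd1 carry 1 miR-10 site each. Of the 6 members called with genotype or injury, Hoxb6 and Hoxb7 carry such an 8mer, printed here. No such 8mer was found in Hoxb5, Hoxb8, Hoxb9 and Hoxc10.
Hoxb6, miR-196a-5p site at chr11:96301379-96301402: gagcacatACTACCTAgaaggaag
Hoxb7, miR-196a-5p site at chr11:96289790-96289813: aaaaatatACTACCTAtgggaaag
The primary gene Mir196a-1 had 123 counts over all libraries and was not called in any comparison (log2 0.81 for KO SNI against control SNI, SE 0.456, adjusted p = 0.297, edgeR), and the other cluster microRNA genes had 0 to 10 counts. Counts of such short genes do not measure the mature microRNA.

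Proteins that work with Hox proteins or regulate Hox genes were followed as lists. Of 9 TALE cofactors, the Pbx, Meis and Pknox homeodomain partners, 1 rose in KO, Pbx2. It averaged 58.8 ± 6.85 CPM in KO SNI (SD, n = 3) and 59.9 ± 4.16 CPM in KO naive (n = 4) against 47.4 ± 8.77 CPM in control SNI (n = 3) and 47.4 ± 2.81 CPM in control naive libraries (n = 5), with KO over control at 0.32 on the log2 scale (SE 0.0801, adjusted p = 0.0314, edgeR). The median over the 9 was -0.04, against -0.02 for all tested genes. With injury, averaged over genotypes, Pbx4 fell. Pbx4 averaged 3.12 ± 0.530 CPM in KO SNI against 5.35 ± 0.623 in KO naive and 4.64 ± 1.39 CPM in control SNI against 4.95 ± 0.582 in control naive libraries (log2 -0.45, SE 0.139, adjusted p = 0.0427).

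Polycomb genes were nearly flat. Of 23 tested, none was called between genotypes and 1 rose with injury averaged over genotypes, Aebp2, a subunit of the complex that writes the repressive mark on histone H3 (log2 0.20, SE 0.0624, adjusted p = 0.0484, edgeR). Of 17 trithorax and other activator genes tested, none was called between genotypes averaged over conditions and 1 rose with injury, Rara, the retinoic acid receptor alpha, which mediates the activation of anterior Hox genes in the embryo. Rara averaged 10.5 ± 2.26 CPM in KO SNI against 6.05 ± 0.555 in KO naive and 7.78 ± 1.72 CPM in control SNI against 5.50 ± 0.668 in control naive libraries (log2 0.67, SE 0.124, adjusted p = 0.00191). The median log2 fold change with injury was -0.03 for the Polycomb and 0.07 for the activator list, against 0.00 for all tested genes.

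Noncoding genes inside the clusters numbered 38, and 10 were tested. None was called between genotypes, and 2 of the HoxD cluster fell with injury averaged over genotypes. Haglr, which starts beside Hoxd1 and overlaps Hoxd3 in antisense, averaged 6.71 ± 1.19 CPM in KO SNI against 8.49 ± 1.63 in KO naive and 5.73 ± 0.301 CPM in control SNI against 7.76 ± 0.890 in control naive libraries (log2 -0.38, SE 0.119, adjusted p = 0.0440, edgeR). Gm14424 fell by 0.94 on the log2 scale (SE 0.297, adjusted p = 0.0477). The homeobox genes Evx1 and Evx2, which lie beyond the posterior ends of HoxA and HoxD, had no count in any library, as had the nearest members Hoxa13 and Hoxd13.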

How the data were processed

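The authors deposited raw read counts per Ensembl gene for 15 libraries in 1 table of 39179 identifiers, of which 37607 matched a symbol in GENCODE M21. The submitters' processing notes name HTSeq 0.6.1 and TopHat2 2.0.4, the build GRCm38, and DESeq2, Cufflinks and SAMtools, with no role for each. Per the labels' protocols the libraries came from a TruSeq stranded mRNA kit. The sources used here give no strand setting, no annotation and no rule for reads with several matches.

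From these counts edgeR 4.0.16 (R 4.3.3) fitted 1 quasi-likelihood model of 4 group means with 11 residual degrees of freedom, after a filter on low counts (filterByExpr, minimum count 10) that kept 16976 of the 27310 genes with a count, and TMM scaling. P-values were Benjamini-Hochberg adjusted over those genes, with a threshold of 0.05. Levels are TMM-scaled CPM, and levels between genes are divided by annotated exon length. Correlations used log2 CPM with a prior count of 2. Alternatives were DESeq2 1.42.0, limma-voom 3.58.1, other scalings, no filter, subsets of groups, omission of the wild-type controls and omission of each library. The fits were tested on simulated data.

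Members, lists and comparisons were chosen with earlier results of these data known. Named genes are the 8 highest members, the most posterior tested member of each cluster and the next one, every called member and the 2 smallest p-values of each comparison. The promoter windows and the miR-10 and miR-196 sites were chosen after the data were seen. The levels of 1 member and 1 cofactor are not reported here. Python 3.11.15 with pandas 2.3.3, NumPy 2.4.6, SciPy 1.17.1 and matplotlib 3.10.9 did the rest.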

Additional observations from a re-analysis of the deposited data

Results flagged for a closer look

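In 4 of 82 groups of values with 4 or more libraries, 1 library stood far from the rest of its group. Chance flags about 1 in 20 such groups, or 4.1 of these. Hoxa5 was 5.41 CPM in control naive replicate 1, against 2.46 to 3.13 CPM in the other control naive libraries. Hoxa10 was 29.4 CPM in control naive replicate 2, against 25.02 to 25.8 CPM in the others. The mean paralog number within HoxC was 7.79 in control naive replicate 6, against 7.49 to 7.57. HoxD gave 28.9% of the Hox pool in control naive replicate 2, against 25.05 to 26.1%.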

How the results depend on the processing

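No paired analysis was possible because the replicate numbers of the 4 groups are all different. No result turned its direction under any alternative run. Among values of single genes and counts of all genes called, 475 kept their call or stayed close to the main value. For single genes, 79 values lost the call and 25 gained it. The 53 values that moved further were all counts of genes called over all tested genes. For KO naive against control naive, DESeq2 and limma-voom called 3 members each, the fit of only the groups compared 7, and the fit without wild-type controls 3. For KO SNI against control SNI, DESeq2 called 3. For KO SNI against KO naive, DESeq2 and limma-voom called 2 each, and the fits of only the groups compared and without wild-type controls 3 each. Without wild-type controls 2 members were called for KO against control averaged over conditions and 2 for SNI against naive. Leaving out each library in turn gave 0 to 3 called members for KO naive against control naive, 0 to 3 for KO SNI against control SNI, 2 to 5 for KO against control averaged, 1 to 2 for KO SNI against KO naive, 1 to 3 for SNI against naive averaged, 3 to 9 for any difference and 0 to 1 for the difference of injury effects. The highest of these counts came without control SNI replicate 15 or 23, tied for KO SNI against KO naive with control naive replicates 2, 3 and 6. The cause was not tested. The mean paralog number was 7.19 without members whose exons overlap another gene, and the share of paralog groups 9 to 13 was 42.5% with no division by length. Counting 7mer-m8 sites raised the members with a site to 6. Depth limits the members near 0 most, since a count of 0 allows up to 0.571 CPM in the shallowest library.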
